A study of Mus musculus with 8 samples.

Results

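The genes described here were 43 components and regulators of DNA replication and S phase, measured in cultured mouse pro-B cells. They were chosen by name: every array probe that is not a control and whose gene name is a listed symbol, or the older alias Cdc45l, Orc1l, Orc2l or Orc6l, was taken, without use of any measured value. This gave 51 of the 39429 probes on the array, and 43 of 31709 gene names. No value entered this rule, but the list of names was drawn up with earlier results of these data known. Of the 43 genes, 35 had 1 probe and 8 had 2, and 42 were bright enough to be tested. Ccne2, which encodes the second E-type cyclin, was not well above background on any of the 8 arrays (probe at mm9 chr4:11131423-11131482).

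The study asked, by its title, how Lin28b acts in fetal B lymphopoiesis. There were 4 groups with 2 separate cell sorts each, all from BALB/c Rag1 null mice, which cannot complete B cell receptor gene assembly, so that B cell development stops at the pro-B stage. In 2 groups, pro-B cells from the femur and tibia of adult mice (2 mice per sort) received a Lin28b retrovirus or the empty retrovirus pMIG. In the other 2 groups, pro-B cells from the pooled livers of embryos at day 16 of gestation (on average 8 embryos per sort) received a let-7b retrovirus or the empty retrovirus MSCV. All cells were sorted onto OP9 stromal cells with the cytokine IL-7 in a 24-well plate, transduced the next day (12 wells for each vector), and sorted again for GFP, the marker of transduced cells, 4 days after that. Amplified RNA, made from 100 ng of total RNA, was hybridised to 1-colour arrays. Bone marrow and fetal liver cells thus differed in age, tissue, empty vector, slide and scan at the same time, and these cannot be told apart in any comparison between them. In bulk samples, fewer cells in S phase and less RNA per cell also cannot be told apart.

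Replication starts when the origin recognition complex (Orc proteins), with Cdc6 and Cdt1, loads the MCM2-7 helicase onto DNA in G1, a step called licensing. In S phase, Mcm10, Cdc45 and the GINS complex turn the loaded helicase into a moving replication fork, where DNA polymerase alpha with its primase starts each strand and polymerases delta and epsilon extend it. PCNA is the sliding clamp that holds these polymerases on DNA, and replication factor C (Rfc1 to Rfc5) loads it. Many of these genes are targets of E2F transcription factors, which cyclin E and its kinase help to release at the G1/S boundary. In pro-B cells, IL-7 is the signal that drives division. Lin28b is an RNA-binding protein of fetal cells that blocks the maturation of let-7 microRNAs, and let-7 represses Lin28b in turn.

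The mature let-7b microRNA (RefSeq, GRCm38.p6, chr15:85707325-85707346) is shown because 1 group carried it, with the seed, bases 2 to 8, in capitals.
mmu-let-7b-5p: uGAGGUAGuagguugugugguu

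E2F motif matches were looked for in the RefSeq promoter windows of the same build, from 250 bases before to 50 bases after each gene's start. The motifs were TTTCCCGC, TTTGGCGC, TTTCGCGC and TTTGCCGC, on both strands, and matches of different motifs could overlap. A window was at hand for 36 of the 43 genes, and 13 of these 36 (36.1%) held a match, against 704 of all 27025 genes (2.6%). The share was 19 of 45 (42.2%) for the further replication genes and 3 of 33 (9.09%) for the mitosis genes described below. TTTGCCGC was found in none of the 36, and TTTCGCGC was found in 7. The upstream stretches below, 60 bases each, are shown because their genes are described further on: Orc1, Cdc6 and Rfc3 were lower in fetal liver cells, Uhrf1 was called higher at 1 of the scalings used, and Mcm5 and Mcm6 were not called. Capitals mark the matches, read 5′ to 3′ on the gene's strand.
Orc1 (chr4:108579394-108579453, plus strand): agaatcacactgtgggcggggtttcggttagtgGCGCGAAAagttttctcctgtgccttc
Cdc6 (chr11:98907987-98908046, plus strand): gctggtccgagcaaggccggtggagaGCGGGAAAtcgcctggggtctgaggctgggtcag
Rfc3 (chr5:151651209-151651268, minus strand): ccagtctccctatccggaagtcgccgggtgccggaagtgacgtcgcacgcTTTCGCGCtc
Uhrf1 (chr17:56304102-56304161, plus strand): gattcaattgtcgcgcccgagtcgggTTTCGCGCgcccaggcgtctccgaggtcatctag
Mcm5 (chr8:75109330-75109389, plus strand): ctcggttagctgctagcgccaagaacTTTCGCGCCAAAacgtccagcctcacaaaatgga
Mcm6 (chr1:128359782-128359841, minus strand): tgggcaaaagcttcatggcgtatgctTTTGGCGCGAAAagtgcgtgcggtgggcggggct
In Mcm5 and Mcm6, a TTTCGCGC and a TTTGGCGC match overlap in opposite orientations. Among the genes with a window, a match was present in 3 of 12 that were lower in fetal liver cells, 3 of 5 that were higher and 7 of 19 that were not called. A match says only that these letters are present.

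All values below are the log2 signal of a probe minus the 75th percentile of its array, so 0 is the level of a probe brighter than 3 in 4 probes. They compare 1 probe across arrays, not 1 gene with another. Tests are limma fits over 22928 genes, with Benjamini-Hochberg adjusted p-values, and a gene was called at an adjusted p below 0.05. Lin28b has 2 probes, and 1 of them (mm9 chr10:45140412-45140471) was at least 121-fold higher in the Lin28b group than in its control. Its signal was well above background on both arrays there, and on neither control array. The other (chr10:45096468-45096527) read a mean of -5.81 with Lin28b and -6.45 in the control, where 1 of 2 arrays was well above background. The pro-B markers were well above background for 14 of 14 measured genes in each group, with a log2 summed level of 8.84 to 9.17 on bone marrow and 9.85 to 10.25 on fetal liver arrays. Of 8 hepatocyte markers, Alb, Apoa1, Fgb and Ttr were not well above background in any group, and Afp in neither fetal liver group. Of 4 tested, Apoa2 (2.44, adjusted p 0.00129) and Serpina1a (3.46, adjusted p 0.00421, limma) were higher in fetal liver than in bone marrow empty vector cells under all 3 scalings used. The other 2 had negative differences (lowest -0.84), not called here but called lower with quantile normalization and with median centring. The log2 summed level of this list was -0.25 to 0.02 in bone marrow and 1.64 to 2.34 in fetal liver empty vector sorts, and its part in the replication gene values was not tested. Correlations between arrays were 0.991 to 0.994 within bone marrow, 0.970 to 0.989 within fetal liver and 0.910 to 0.943 between them. The array of the second bone marrow empty vector sort had a patch of low signal, and 5 tested replication genes have their probe in it. Their values are therefore given with and without that patch.

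Neither transduction changed a replication gene past the threshold. With Lin28b, 0 of 42 genes were called and the median difference was 0.05 (all genes: 0% called, median -0.04). With let-7b, 0 of 42 were called and the median difference was 0.06 (all genes: 0.0305% called, median -0.06). No member reached an unadjusted p below 0.05 either, against 3.57% of all genes for Lin28b and 9.77% for let-7b. The 95% interval stayed within a 2-fold change in both directions for 39 of 42 members with Lin28b (64.4% of all genes) and for 40 of 42 with let-7b (58.3% of all genes). With Lin28b it did so for 93% of the further replication genes and 94.6% of the mitosis genes described below, and with let-7b for 89.5% and 86.5%. The members were bright: 34 of 42 were at or above the 75th percentile on all 8 arrays, against 30.4% of all genes. The part of brightness in these shares was not tested. The median SD between the 2 sorts of a group was 0.05 to 0.14 for the members and 0.08 to 0.29 for all genes.

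Between fetal liver and bone marrow cells with empty vector, 21 of 42 members were called, where 59.6% of all genes were. Of these, 15 were lower in fetal liver (19.5% of all genes) and 6 were higher (40.1% of all genes). The members' median difference was -0.17, while that of all genes was 0.52. Against the median of all genes, 35 of 42 members lay below and 7 above. The 2 empty vector groups did not overlap in 83.3% of members, against 83.1% of all genes.

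**Figure D1:**
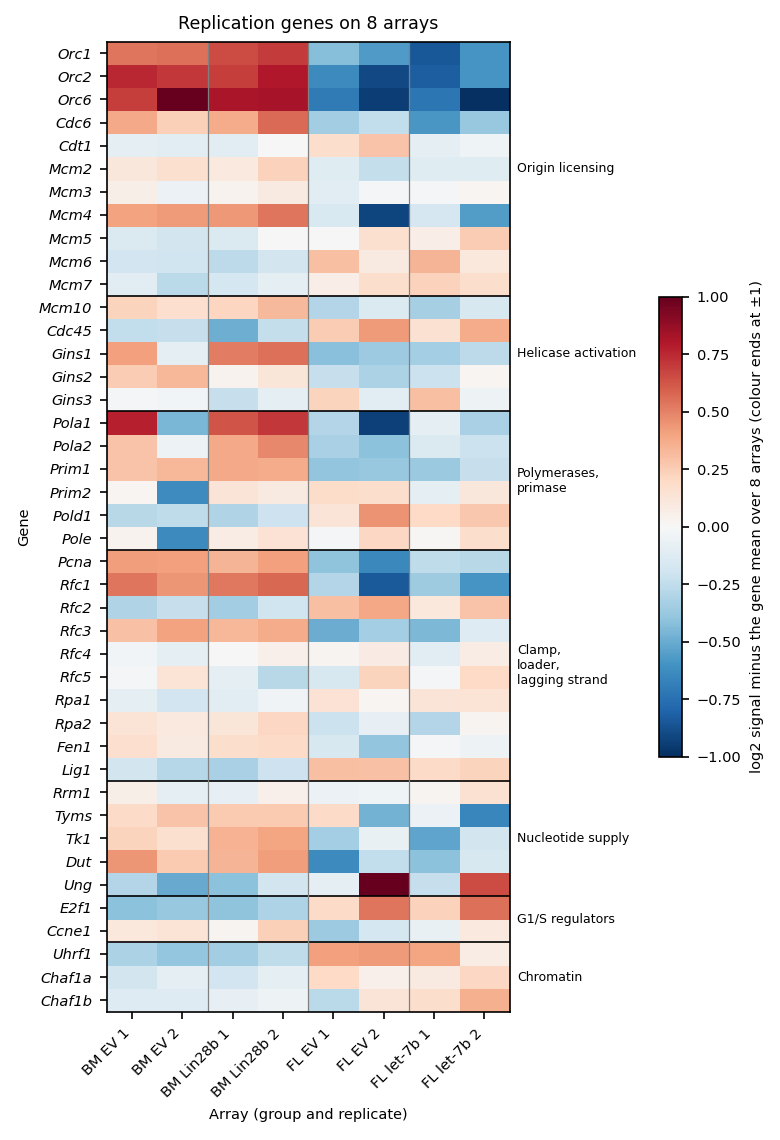
Heat map of 42 replication genes (rows, by role) on the 8 arrays (columns); colour is the log2 signal minus the gene's mean over the 8 arrays, with colours ending at ±1. Orc1, Orc2, Orc6, Pcna and Rfc1 are above their mean on the 4 bone marrow arrays and below it on the 4 fetal liver arrays, and Pola1, Prim2 and Pole are low on the array of the second bone marrow empty vector sort.

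**Figure D2:**
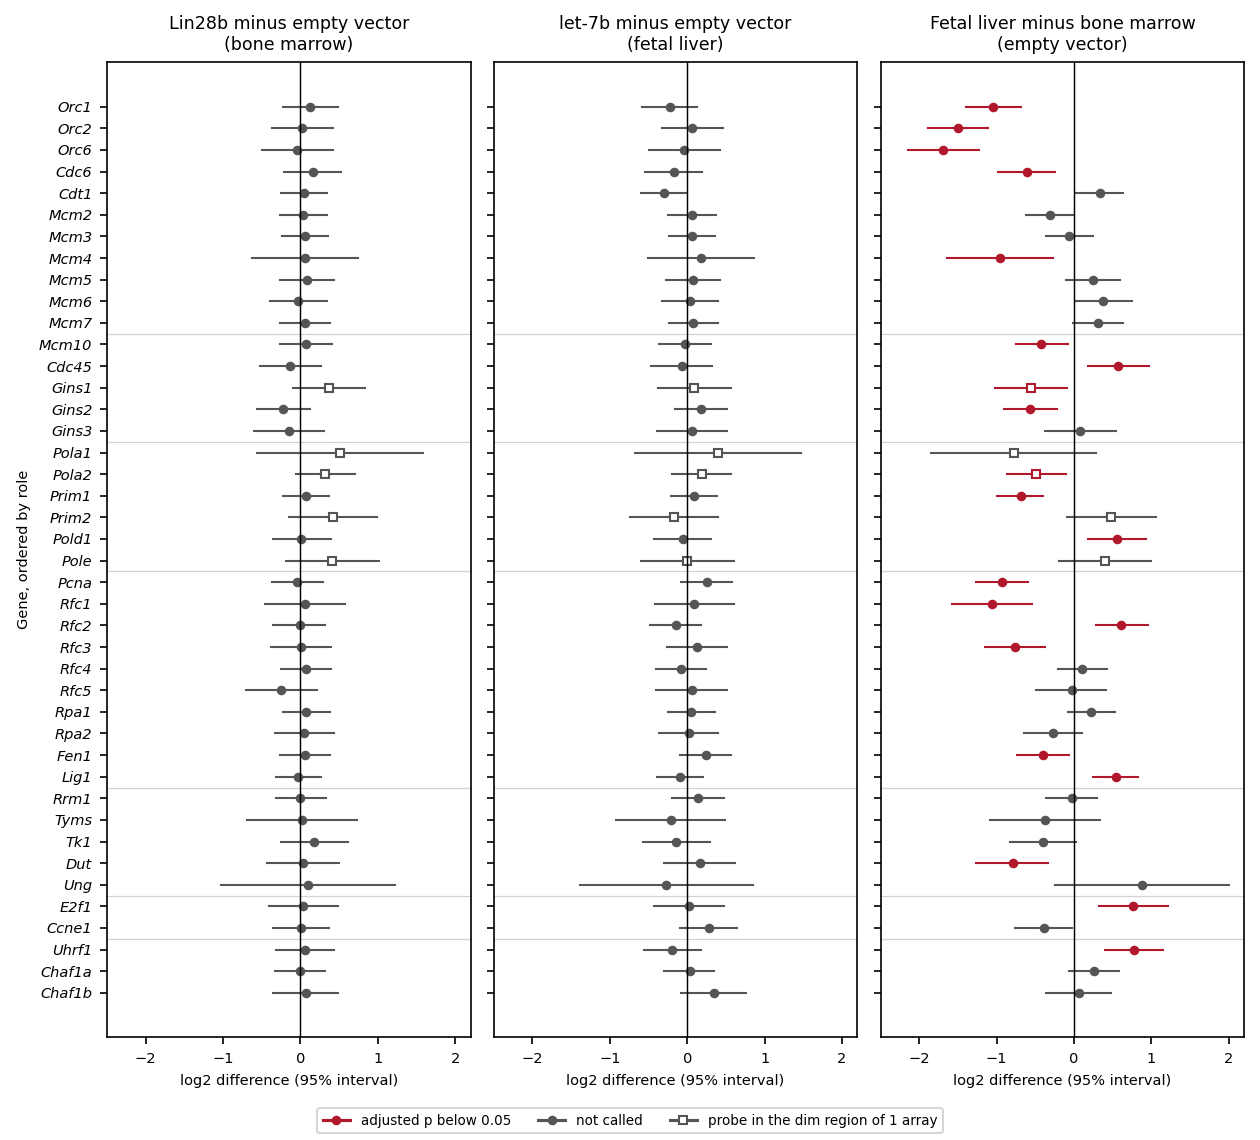
Log2 difference (x axis) of each tested gene (y axis, by role) with its 95% interval from the limma fit, for Lin28b, let-7b and the 2 empty vector groups; red marks an adjusted p below 0.05, and open squares mark genes whose probe lies in the dim patch of 1 array. None of the 42 genes is red in the first and second panels, and 21 are in the third.

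The shift of all genes depends on how arrays are scaled, so each call was set against quantile normalization and against centring each array on its median. These moved the median difference of all genes from 0.52 to 0.04 and -0.30, and that of the members from -0.17 to -0.47 and -0.99. The calls became 3 higher and 21 lower with quantile normalization (52.2% of all genes called), and 0 higher and 27 lower with median centring (55% of all genes called). Higher genes were thus 28.6%, 12.5% and 0% of the members called, against 67.3%, 49.2% and 34.5% of all genes called. The 15 genes that were lower were called lower under all 3 scalings (19.3% of all genes were), and none of the 6 higher genes was called higher under all 3 (15.7% of all genes were). Both other scalings moved the median of all genes down, which favours lower calls over higher ones. Among all genes, 4431 of 4463 lower calls were kept under the 3 scalings, and 3590 of 9195 higher calls. Keeping a lower call is therefore no separate check, here or for the lists below. The call count also depended on single arrays: it was lowest without either bone marrow empty vector sort, which leaves 1 array in that group. The number of calls among all genes was lowest there too. How many of all genes kept their call without each array in turn was not counted. Of the 21 genes, 6 kept their call without each of the 8 arrays in turn: Orc1, Orc2, Orc6, Prim1, Pcna and Rfc1.

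**Figure D3:**
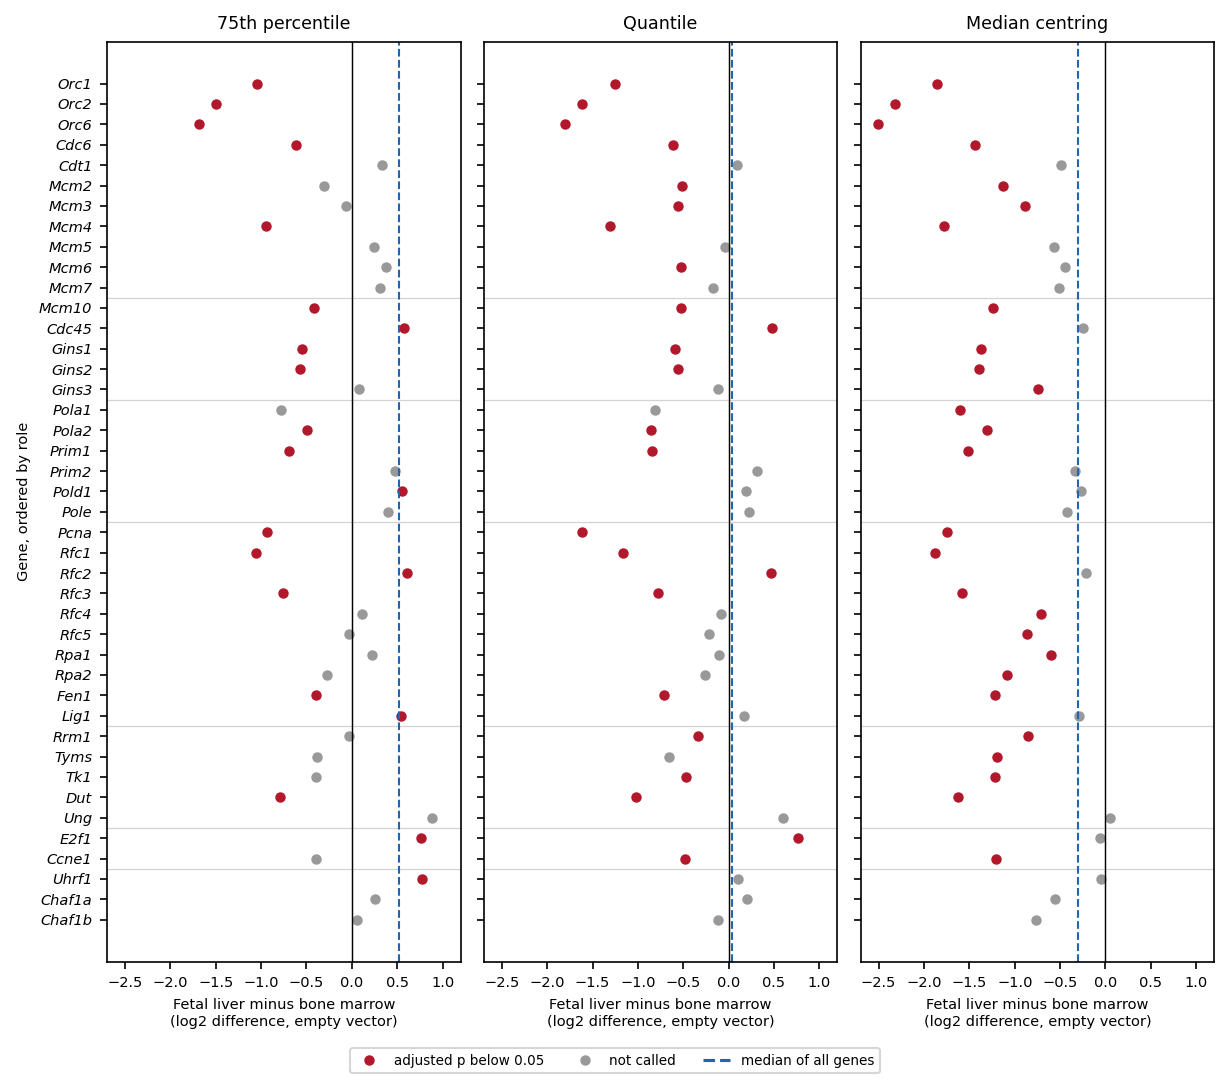
Fetal liver minus bone marrow log2 difference (x axis) of each tested replication gene with empty vector, under 3 ways of scaling the arrays; red points have an adjusted p below 0.05 and the dashed line is the median of all genes. The points move left from the first panel to the third, with the median of the replication genes at -0.17, -0.47 and -0.99, and the 15 genes that are red and below 0 in the first panel are so in all 3.

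Among the 11 licensing genes, the origin recognition complex subunits Orc1, Orc2 and Orc6 had the lowest fetal liver values relative to bone marrow. Orc6, the smallest subunit (probe at mm9 chr8:87831769-87831828), read 3.72 and 4.06 in the bone marrow empty vector sorts and 3.84 and 3.85 with Lin28b, against 2.32 and 2.08 in the fetal liver empty vector sorts and 2.30 and 2.03 with let-7b. Its empty vector difference was -1.69 ± 0.18 (SE; 3.22-fold lower; adjusted p 0.00121, limma). Orc2, a core subunit (chr1:58521127-58522890), read -0.05 and -0.10, then -0.11 and 0.00 with Lin28b, then -1.44 and -1.71 in fetal liver and -1.63 and -1.39 with let-7b. The difference was -1.50 ± 0.16 (2.83-fold lower; adjusted p 0.00112, limma). Orc1, the ATPase subunit (chr4:108284772-108285679), read -0.92 and -0.90, -0.80 and -0.75 with Lin28b, -1.88 and -2.02 in fetal liver, and -2.30 and -2.04 with let-7b, a difference of -1.04 ± 0.14 (adjusted p 0.00224, limma). For these 3 genes, each of the 4 bone marrow arrays was above each of the 4 fetal liver arrays. Other members separated in the same way, such as Prim1 and Rfc1, and in the other direction Rfc2 and Lig1. The share of all genes that did so was not counted. The 2 empty vector groups alone did not overlap in 83.1% of all genes. Relative to the median of all genes, Orc6, Orc2 and Orc1 stood at -2.21, -2.02 and -1.56. The remaining subunits, which are not among the 43 genes and were added after their values had been seen, were split: Orc4 was lower (-1.57, adjusted p 0.00323, limma), while Orc3 (-0.21, adjusted p 0.224) and Orc5 (-0.58, adjusted p 0.119, limma) were not called.

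The MCM2-7 helicase subunits did not move as a block. Mcm4 (chr16:15624372-15624431) was lower in fetal liver, with 5.24 and 5.26 in bone marrow and 4.68 and 3.92 in fetal liver empty vector sorts. Its difference was -0.95 ± 0.28 (adjusted p 0.0283, limma), and the call was lost without either bone marrow empty vector sort, either Lin28b sort or the second fetal liver empty vector sort. None of the other 5 was called: the differences were -0.31 for Mcm2, -0.06 for Mcm3, 0.25 for Mcm5, 0.38 for Mcm6 and 0.31 for Mcm7. Mcm2, Mcm3 and Mcm6 were called lower with quantile normalization (-0.51, -0.56 and -0.52), and Mcm2 and Mcm3 also with median centring (-1.13 and -0.89). The sign of Mcm5, Mcm6 and Mcm7 therefore turned with the scaling. Mcm6 read 6.27 and 6.26 in bone marrow and 6.76 and 6.55 in fetal liver empty vector sorts, and Mcm7 read 5.33 and 5.18, against 5.51 and 5.62. Cdt1, the loading factor that carries MCM2-7 to origins, had a difference of 0.33 (adjusted p 0.0571, limma), with 3.97 and 3.95 in bone marrow against 4.24 and 4.35 in fetal liver. This became 0.09 with quantile normalization and -0.49 with median centring. With trend and robust moderation in limma, with or without the replicate number as a block, Cdt1 and Mcm6 were called higher and Mcm2 lower. Mcm7 was called higher with this moderation only without the block. Cdt1 was called without the first fetal liver empty vector sort (0.39), and Mcm6 without the second (0.49).

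Cdc6, the ATPase that recruits Cdt1 and the helicase, has 2 probes that disagreed. The brighter one, used for the call (chr11:98782986-98783045), read 0.91 and 0.77 in bone marrow and 0.18 and 0.28 in fetal liver empty vector sorts, a difference of -0.61 ± 0.15 (adjusted p 0.0150, limma). The other (chr11:98785169-98785228) read -0.98 and -0.97, against -0.69 and -0.96, a difference of 0.15 (adjusted p 0.426, limma). The first was called lower under the 3 scalings, but not without either of the bone marrow empty vector sorts, and the mean of both probes was not called (-0.23). With Lin28b, the 11 licensing genes lay between -0.04 (Orc6) and 0.16 (Cdc6). With let-7b they lay between -0.30 (Cdt1) and 0.18 (Mcm4).

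Of the 5 helicase activation genes, 3 were lower and 1 was higher in fetal liver. Gins2, a subunit of the GINS complex, read 0.95 and 1.03 in bone marrow and 0.47 and 0.38 in fetal liver empty vector sorts (difference -0.57 ± 0.14, adjusted p 0.0159, limma). Mcm10, which helps to switch on the loaded helicase, read 3.08 and 3.02, against 2.56 and 2.71 (-0.42 ± 0.14, adjusted p 0.0413, limma). In both, the fetal liver sorts lay below the bone marrow sorts (no overlap in 83.1% of all genes). Both calls were lost without either bone marrow empty vector sort. The Mcm10 call was also lost without either Lin28b sort or the first fetal liver sort. Gins1 is in the dim patch of the second bone marrow array: its difference was -0.55 (adjusted p 0.0467, limma), and -0.80 (adjusted p 0.0106, limma) without the patch. Leaving out any array but that one ended its call. Gins3 was not called, at 0.08, except as lower with median centring (-0.74).

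Cdc45, the subunit that binds the helicase together with GINS, read -1.15 and -1.13 in bone marrow and -0.65 and -0.48 in fetal liver empty vector sorts. This difference of 0.57 ± 0.16 (adjusted p 0.0240, limma) was 0.48 and called with quantile normalization, -0.25 and not called with median centring, and stood at 0.05 relative to the median of all genes. Leaving out either bone marrow empty vector sort or the second fetal liver empty vector sort ended the call. With let-7b the 5 genes lay between -0.07 (Cdc45) and 0.18 (Gins2), and with Lin28b between -0.22 (Gins2) and 0.37 (Gins1).

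Of the 6 polymerase and primase genes, Prim1 and Pola2 were lower in fetal liver and Pold1 was higher. Prim1, the catalytic primase subunit that makes the RNA primers (chr10:127466952-127467011), read 3.75 and 3.80 in bone marrow, 3.85 and 3.84 with Lin28b, 3.07 and 3.09 in fetal liver and 3.1 and 3.24 with let-7b. The difference of -0.69 ± 0.12 (adjusted p 0.00478, limma) was several times larger than the gap between sorts in any group. Pold1, the catalytic subunit of polymerase delta, read 4.50 and 4.52, against 4.90 and 5.22 in fetal liver empty vector sorts. Its difference of 0.55 ± 0.15 (adjusted p 0.0230, limma) was 0.19 with quantile normalization and -0.27 with median centring, not called under either, and the call was lost without any 1 of the 4 bone marrow arrays.

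The other 4 genes of this role have their probes in the dim patch. Pola2, the accessory subunit of polymerase alpha, had a difference of -0.49 (adjusted p 0.0381, limma), and of -0.65 (adjusted p 0.0222, limma) without the patch. Leaving out any array but the affected one ended its call. Pola1, the catalytic subunit of polymerase alpha, read 2.81 and 1.58 in bone marrow empty vector sorts, against 1.74 and 1.10 in fetal liver ones. Its difference went from -0.78 (adjusted p 0.164) to -1.40 (adjusted p 0.0172, limma), when the patch was left out, and it was also called without that array and with median centring (-1.60). Prim2, the large primase subunit, went from 0.48 to 0.16 and Pole, the catalytic subunit of polymerase epsilon, from 0.40 to 0.06, and neither was called with or without the patch. When the first bone marrow empty vector sort was left out, which leaves only the affected array as control, both were called higher (0.81 and 0.73).

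The clamp and clamp loader genes were split. Pcna (chr2:132075022-132075054) read 6.24 and 6.23 in bone marrow, 6.16 and 6.23 with Lin28b, 5.42 and 5.18 in fetal liver and 5.57 and 5.54 with let-7b. The empty vector difference was -0.93 ± 0.13 (1.91-fold lower, adjusted p 0.00259, limma). The 4 bone marrow arrays all lay above the 4 fetal liver arrays, as in other members, and the share of all genes that did so was not counted. For the 2 empty vector groups alone, there was no overlap in 83.1% of all genes. Rfc1, the large subunit of the clamp loader (chr5:65653207-65653266), read 3.49 and 3.40, 3.48 and 3.53 with Lin28b, 2.66 and 2.12 in fetal liver, and 2.60 and 2.37 with let-7b. Its difference of -1.06 ± 0.21 (adjusted p 0.00754, limma) was called lower in each of the 22 ways the values were processed, as were those of Orc2 and Orc6 and no others. Rfc3, a small subunit, read 0.48 and 0.59, against -0.31 and -0.15 (-0.76 ± 0.16, adjusted p 0.00906, limma), and was not called without the second bone marrow empty vector sort.

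Rfc2, another small subunit of the same 5-part complex, was higher: 2.82 and 2.89 in bone marrow, and 3.42 and 3.51 in fetal liver empty vector sorts. Its difference of 0.61 ± 0.13 (adjusted p 0.0109, limma) was 0.47 and called with quantile normalization, -0.21 and not called with median centring, and 0.09 relative to the median of all genes. It was not called without either bone marrow empty vector sort. Rfc4 (0.11) and Rfc5 (-0.03) were not called, except as lower with median centring (-0.71 and -0.86).

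On the lagging strand, Fen1, the nuclease that trims the flaps between fragments, read 4.77 and 4.69 in bone marrow and 4.44 and 4.21 in fetal liver empty vector sorts (-0.40 ± 0.13, adjusted p 0.0420, limma). That call was lost without any 1 array other than the first fetal liver empty vector sort. Lig1, the ligase that joins the fragments, read 4.67 and 4.57, against 5.16 and 5.15. Its difference of 0.54 ± 0.12 (adjusted p 0.0118, limma) was 0.17 with quantile normalization and -0.29 with median centring, not called under either, and was not called without either bone marrow empty vector sort.

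Replication protein A coats single-stranded DNA, and the 2 probes of its large subunit Rpa1 disagreed. The brighter probe (chr11:75113898-75113957) read 4.66 and 4.56 in bone marrow and 4.90 and 4.77 in fetal liver empty vector sorts, a difference of 0.22 that was not called (adjusted p 0.167, limma). The other (chr11:75114060-75114119), beside it on the same strand, read 3.17 and 3.07, against 2.38 and 2.66, a difference of -0.60 (adjusted p 0.0155, limma). No direction can be given for Rpa1. Rpa2 was not called, at -0.27, except as lower with median centring (-1.09), where the brighter Rpa1 probe was called lower too (-0.60). Across the 10 clamp, loader and lagging strand genes, differences with Lin28b ran from -0.25 (Rfc5) to 0.07, and with let-7b from -0.15 (Rfc2) to 0.25 (Pcna).

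Among the nucleotide supply genes, Dut, which removes dUTP from the precursor pool, was the only one of 5 called with the 75th percentile scaling. It read 4.47 and 4.29 in bone marrow, 4.37 and 4.45 with Lin28b, 3.39 and 3.78 in fetal liver and 3.62 and 3.87 with let-7b. Its difference was -0.79 ± 0.19 (adjusted p 0.0140, limma), and it was not called without the first bone marrow empty vector sort. The ribonucleotide reductase subunit Rrm1 was at -0.03, thymidine kinase Tk1 at -0.40 and thymidylate synthase Tyms at -0.38. With quantile normalization, Rrm1 (-0.34) and Tk1 (-0.47) were also called lower, and with median centring Rrm1 (-0.85), Tk1 (-1.22) and Tyms (-1.20) were. Ung, which excises uracil from DNA, had the largest spread between fetal liver sorts. It read 4.12 on the second slide and 5.27 on the third in fetal liver empty vector sorts, and 3.98 and 4.86 with let-7b, against 3.71 to 4.03 on the 4 bone marrow arrays. Its difference of 0.88 ± 0.45 was not called (adjusted p 0.141, limma), but was called without the first fetal liver empty vector sort (1.45).

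The transcription factor E2f1 read 0.74 and 0.77 in bone marrow, 0.75 and 0.84 with Lin28b, 1.34 and 1.69 in fetal liver and 1.38 and 1.70 with let-7b. Its difference of 0.76 ± 0.18 (adjusted p 0.0143, limma) kept its size with quantile normalization (0.76, called), but was -0.06 with median centring and 0.24 relative to the median of all genes. Leaving out either bone marrow empty vector sort ended the call. Cyclin E1 (Ccne1) had a difference of -0.39 (adjusted p 0.0647, limma) at its brighter probe and 0.04 at the other, and was not called. Its brighter probe was called lower with quantile normalization (-0.48), with median centring (-1.21), and with trend and robust moderation, with or without the replicate number as a block. Without the second fetal liver empty vector sort it was at -0.49.

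Of the 3 chromatin genes, Uhrf1, which brings the maintenance DNA methyltransferase to newly copied DNA, was higher in fetal liver at both of its probes. The brighter probe (chr17:56462770-56462829) read 5.57 and 5.50 in bone marrow, 5.54 and 5.63 with Lin28b, 6.30 and 6.31 in fetal liver, and 6.28 and 5.96 with let-7b. Its difference was 0.77 ± 0.15 (adjusted p 0.00721, limma), and that of the other probe was 0.93 (adjusted p 0.00192, limma). With quantile normalization the brighter probe was at 0.10 and with median centring at -0.05, not called under either, and it was not called without the second bone marrow empty vector sort. The 2 measured subunits of chromatin assembly factor 1, which places histones behind the fork, were not called: Chaf1a was at 0.26 and Chaf1b at 0.06.

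With Lin28b in bone marrow cells, 35 of 42 members (83.3%) differed from the empty vector by less than 0.2 in either direction, as did 63.3% of all genes. The share was 91.2% in the further replication genes and 97.3% in the mitosis genes described below. The range was -0.25 (Rfc5) to 0.51 (Pola1), and the lowest unadjusted p was 0.0875 (Pola2; adjusted p 1, limma). The 2 groups did not overlap in 15 of 42 members (35.7%; 50.7% of all genes). All 5 members above 0.3 have their probe in the dim patch: Pola1 at 0.51, Prim2 at 0.42, Pole at 0.41, Gins1 at 0.37 and Pola2 at 0.32.

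In that patch, 70 rows by 45 columns near 1 end of the array of the second bone marrow empty vector sort, 25.6% of 1604 spots read more than 0.4 below the first sort, against 1.98% of 21164 spots elsewhere. Its borders were drawn after the values had been seen. Pola1 read 2.81 in the first empty vector sort and 1.58 in the second, against 2.66 and 2.74 with Lin28b. Pole read 3.52 and 2.85, against 3.56 and 3.63, and Prim2 read -1.26 and -1.91, against -1.15 and -1.19. In each case the second empty vector sort stood alone below the other 3 arrays. Without the patch on that array, the 5 differences were -0.11 (Pola1), 0.09 (Prim2), 0.08 (Pole), 0.12 (Gins1) and 0.15 (Pola2). Mcm3 has overlapping probes, of which 1 lies in the patch (chr1:20793136-20793195) and 1 does not (chr1:20793119-20793178). The first read 4.85 and 4.28 in the empty vector sorts, and the second 5.45 and 5.33. Without the second empty vector sort, all 42 members were within 0.2 of 0.

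**Figure D4:**
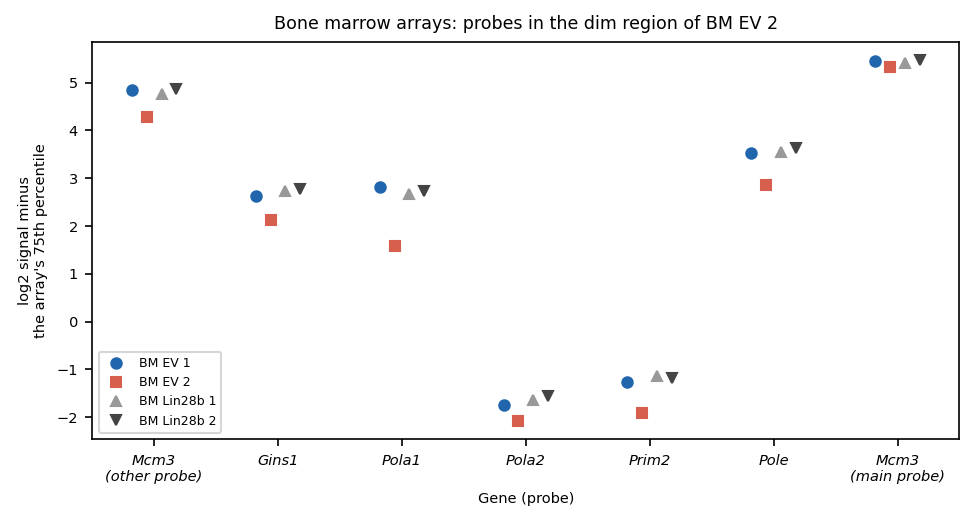
Log2 signal relative to each array's 75th percentile (y axis) on the 4 bone marrow arrays (EV, empty vector) for the replication gene probes that lie in the dim patch of the second empty vector array and, at the right, for the Mcm3 probe outside it. The second empty vector sort is the lowest of the 4 for each of the 6 probes shown from the patch, such as 1.58 against 2.66 to 2.81 for Pola1.

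Stromal markers, which OP9 cells could contribute, moved beside these values. Their log2 summed level was 3.65 to 3.92 in bone marrow empty vector sorts and 4.47 to 5.01 with Lin28b. With Lin28b, 15 of 16 tested stromal genes were positive with none called, against 9340 of 22928 positive among all genes. The summed level was 2.82 to 3.01 in fetal liver empty vector sorts and 3.05 to 3.91 with let-7b. Lum was not well above background in any group. Of the 16, 9 were called lower and 3 higher in fetal liver than in bone marrow empty vector cells (19.5% and 40.1% of all genes). Their part in the replication gene values was not tested.

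With let-7b in fetal liver cells, 33 of 42 members (78.6%) were within 0.2 of the empty vector, as were 46.4% of all genes. The share was 77.2% in the further replication genes and 59.5% in the mitosis genes described below. The 2 groups did not overlap in 17 members (40.5%; 30.1% of all genes). Cdt1 had the smallest p: it read 4.24 and 4.35 with empty vector and 3.97 and 4.02 with let-7b, a difference of -0.30 ± 0.12 (unadjusted p 0.0509, adjusted p 0.512, limma). Chaf1b read 3.64 and 4.04, against 4.09 and 4.27, a difference of 0.34 ± 0.17 (adjusted p 0.599, limma), and its second, partly overlapping probe gave 0.35. Ccne1 was at 0.28 at its brighter probe and at -0.08 at the other. Pcna was at 0.25 (adjusted p 0.626) and Fen1 at 0.24 (adjusted p 0.644, limma). None of these passed.

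Each fetal liver slide held 1 empty vector and 1 let-7b array, so the difference can be read within a slide. With the value of the second slide first, it was -0.27 and -0.33 for Cdt1, 0.45 and 0.23 for Chaf1b, 0.29 and 0.27 for Ccne1, 0.15 and 0.36 for Pcna, and 0.20 and 0.61 for Pola1. The sign was the same on both slides in 31 of 42 members. In 21 of 42 members the slides differed by more than let-7b and empty vector did, and in 32 the slide difference had the same sign in both groups. Ung was 1.15 higher on the third slide with empty vector and 0.88 higher with let-7b, while Tyms was at -0.66 and -0.59 and Mcm4 at -0.76 and -0.38. Slide, scan and sort cannot be told apart there.

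**Figure D5:**
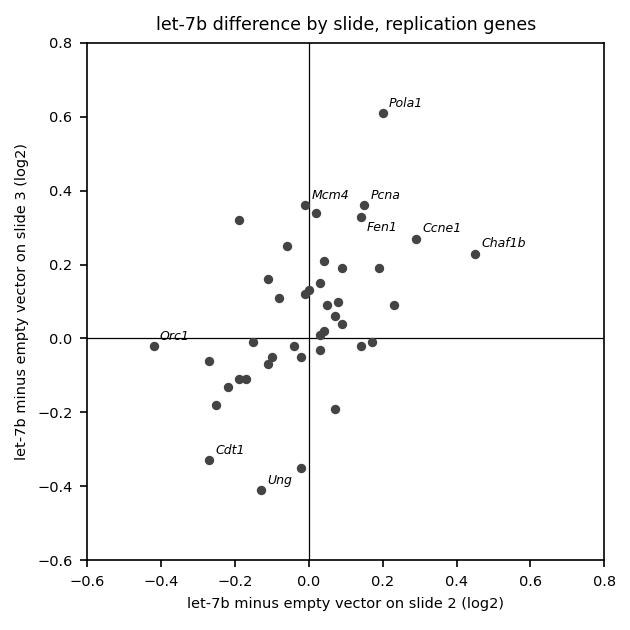
Let-7b minus empty vector log2 difference of each tested replication gene on the second slide (x axis) and the third slide (y axis), 1 point per gene. In 31 of 42 genes both values have the same sign; Cdt1 is at -0.27 and -0.33, and Chaf1b at 0.45 and 0.23.

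A second list held 57 further replication genes. None was called with Lin28b (median 0.03) or let-7b (median 0.10). With let-7b the smallest p-values belonged to Dscc1, part of an alternative clamp loader (0.62, adjusted p 0.273, limma), the repressor E2f7 (0.42), the activator E2f3 (0.35) and the histone chaperone Asf1a (0.40). In fetal liver against bone marrow empty vector cells, 33 were lower and 4 higher (19.5% and 40.1% of all genes), with a median of -0.82; how the 2 lists differ was not tested. All 33 were called lower under the 3 scalings, as were 4431 of the 4463 lower calls among all genes. None was called higher under all 3. E2f3 read 1.62 and 1.66 in bone marrow and 0.14 and -0.10 in fetal liver (-1.62, adjusted p 0.00076, limma). The histone chaperone Nasp was at -1.58, the Cdc7 kinase activator Dbf4 at -1.19 and Mtbp, which acts in origin firing, at -1.46.

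Mitosis genes were set beside the replication genes as those of a later phase of the cycle. Of 37 tested, none was called with Lin28b (median -0.03) or let-7b (median 0.16, with 28 of 37 positive, and 9814 of 22928 among all genes). Ndc80, a kinetochore protein, had the smallest p with let-7b (0.45, adjusted p 0.444, limma). In fetal liver, 18 were lower and 2 higher than in bone marrow empty vector cells (54.1% called, against 59.6% of all genes), with a median of -0.49, and the 18 were called lower under the 3 scalings. The condensin subunit Smc2 read 3.78 and 3.75, against 1.80 and 1.04 (-2.35, adjusted p 0.00135, limma), and the spindle checkpoint protein Mad2l1 was at -0.93.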

How the data were processed

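Spot intensity (the processed green signal) and background flags were deposited for each array, per the file headers from Agilent Feature Extraction 9.5.3.1, with probe positions on mm9; further submitter steps are not given in the sources used here. The authors' deposited log2 table served as an alternative within each tissue only; its normalization is not stated, and its column medians were 7.14 to 7.16 in bone marrow and 6.13 to 6.14 in fetal liver.

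Control spots were left out (1377 of 44397), spots of a probe averaged, and log2 intensity set relative to the array's 75th percentile. Probes with an outlier spot (31) or well above background on fewer than 2 arrays (10988) were dropped, which left 28410, and the brightest probe stood for a gene. Names were updated by accession (19857 probes), symbol (1960) or synonym (563), and 6030 kept the file's name. limma 3.58.1 (R 4.3.3) fitted 1 mean per group over 8 arrays, with 4 residual and 1.69 prior degrees of freedom. The fit was tested on simulated data. An exact permutation test of 2 against 2 arrays cannot go below 0.333. Precision is limited by the number of arrays.

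Replicates are separate sorts. In fetal liver the replicate number is also the slide (correlation of same-numbered deviations 0.517); in bone marrow the arrays share 1 slide and only a number (-0.0553).

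Any member may be named; up to 3 per role by smallest p, and those whose probes disagree, get values by array; up to 4 genes are named from each other list. The members and lists were chosen with earlier results of these data known. Myeloid, erythroid and T/NK marker lists had medians of -0.12, -0.09 and -0.06 with Lin28b, 0.07, -0.09 and -0.29 with let-7b, and 1.81, 1.07 and 0.20 between tissues. For these comparisons in turn, the hepatocyte list had -0.18, -0.27 and 0.93, the pro-B list -0.14, 0.06 and 0.29, and the stromal list 1.00, 0.91 and -1.56. Tested myeloid genes ranged from -0.52 to 6.95 (S100a9) with Lin28b and from -0.99 to 2.61 (Ly6c1) with let-7b, with none called. The log2 summed myeloid level was 3.97 to 4.04 in bone marrow and 5.18 to 6.2 in fetal liver empty vector sorts. Its part in the replication gene values was not tested.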

Additional observations from a re-analysis of the deposited data

How the results depend on the processing

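Under each alternative tried, 0 members were called for Lin28b and 0 for let-7b. Between the 2 empty vector groups the 21 calls became 5 with normexp background correction (Orc2, Orc6, Rfc1, Rfc3 and Dut), 12 with only the 4 arrays compared and 13 with the slide as a random block. The share of all genes called went from 59.6% to 45.4%, 50.1% and 46.6%, in that order. The cause was not tested. Leaving out 1 array at a time gave 10 to 20 calls, and at 10 the array left out was either bone marrow empty vector sort. With the replicate number as a block (pairing by slide in fetal liver) there were 18 calls, 6 higher and 12 lower (59.8% of all genes called), and no other count of members called changed. Over all genes, the block moved the number with an unadjusted p below 0.05 for Lin28b from 819 to 1390 (limma). For let-7b, the block moved the limma calls from 7 to 0, with 2787 genes at an unadjusted p below 0.05. With trend and robust moderation added to the block, the let-7b calls over all genes were 76 higher and 57 lower. Among the 21 called members, directions that turned were Pola2 at 0.19 with normexp, Cdc6 at 0.15 with its second probe, and, with median centring, Cdc45 (-0.25), Pold1 (-0.27), Rfc2 (-0.21), Lig1 (-0.29), E2f1 (-0.057) and Uhrf1 (-0.048). Of all 42 members, 17 changed sign in this comparison with median centring, 7 with quantile normalization, 6 with normexp and 5 with second probes. With normexp 26 of 42 uncalled let-7b differences changed sign. The median of all 42 was then -0.32, while that of all genes was 0.34. Leaving out the dim patch, the second probes, and the block with trend and robust moderation were alternatives chosen after seeing the data. They gave 22, 21 and 27 calls (59.1%, 59.6% and 64% of all genes called). The last lost Pola2 and added Cdt1, Mcm6 and Ung as higher and Mcm2, Pola1, Tk1 and Ccne1 as lower. Trend and robust moderation without the block gave 26 calls (61.9% of all genes called), adding Cdt1, Mcm6 and Mcm7 as higher and Mcm2 and Ccne1 as lower.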
